A study of Mus musculus with 8 samples.

Results

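The genes described here encode enzymes of glycolysis and lactate metabolism: the hexokinases Hk1 and Hk2, the phosphofructokinases Pfkp and Pfkl, the regulatory enzyme Pfkfb3, the aldolase Aldoa, the phosphoglycerate kinase Pgk1, the enolase Eno1, and the lactate dehydrogenases Ldha and Ldhb. They were chosen by name, and the deposited transcript entries whose RefSeq accession belongs to a symbol were summed, which gave 10 genes of 24791 in the table. All 10 reached 1 FPKM (fragments per kilobase of transcript, scaled to the depth of the library, a level per transcript length) in at least 2 libraries, the limit for testing, as did 11853 genes in all. Hk1 reached that limit only in 8C libraries, and Pfkl in 1 library each of 8C and CX45.

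C57BL/6 mouse embryos were profiled by Smart-seq RNA sequencing, with 8 libraries in 4 groups of 2, in a study on RNA polymerase I transcription and chromatin architecture. The groups are labelled 2C, 8C, CX22 and CX45. 2C and 8C are read here as embryos at the 2-cell and 8-cell stage. The labels do not spell out CX22 and CX45, name no control and give no treatment, dose, age or time, so all 6 pairs of groups were compared. They do not say whether the libraries of a group came from separate embryos or from pools of embryos, so a p-value here reflects the spread from library to library, which may be technical.

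Implied depths ran from 9.73 to 20.3 M fragments per library. The difference between the 2C libraries was close to sampling noise, so they were averaged and counted as 1 sample, so 2C values have no SD. CX22 libraries stood furthest apart from each other: 333 genes were above 10 FPKM in one and listed at 0 in the other, against 46 such genes in CX45, 15 in 8C and 7 in 2C. Listed markers of the 2-cell stage summed to between 477 and 490 FPKM in 2C and between 12.5 and 15.6 FPKM in 8C. Those of the 8-cell stage summed to between 79.4 and 81.7 FPKM in 2C and between 1347 and 1668 FPKM in 8C. Both sums followed the labels, but not every marker did. Tdpoz4, of the 2-cell list, was at 0.972 and 0.699 FPKM in 2C and 9.15 and 9.57 FPKM in 8C. Gata3, of the 8-cell list, was at 4.09 and 3.93 FPKM in 2C and 1.76 and 1.24 FPKM in 8C. Dppa2 (635 and 831 FPKM) and Dppa4 (596 and 722 FPKM) held most of the 8-cell sum in 8C. CX22 libraries held 564 to 701 FPKM of the 2-cell and 67.0 to 74.4 FPKM of the 8-cell markers. CX45 held 940 to 1219 FPKM of the 8-cell markers, while the 2-cell markers summed to 826 FPKM in replicate 2 and 82.4 FPKM in replicate 1. The 2-cell markers did not all differ in that direction. Zfp352, Tcstv1, Tcstv3, Tdpoz4 and Zscan4d were higher in CX45 replicate 2 than in replicate 1. Zscan4c (0.588 against 1.28 FPKM), Zscan4f (1.68 against 2.73 FPKM) and Usp17la (1.37 against 2.71 FPKM) were lower in replicate 2. Of 10 tested oocyte markers, 9 were lower in 8C than in 2C and 1, Dppa3, was higher. Their median log2 difference was -3.43, against -0.04 for all genes tested. Oosp1 was at 1693 and 1700 FPKM in 2C and 5.51 and 9.66 FPKM in 8C. In CX22 it was at 1267 and 1705 FPKM, and in CX45 at 62.9 and 89.0 FPKM. Zp3 was at 14.7 and 15.5 FPKM in 2C, 13.3 and 13.4 FPKM in 8C, and 54.3 and 29.5 FPKM in CX45. Of markers of other cells, cumulus and granulosa markers summed to between 9.85 and 10.5 FPKM in 2C, 5.22 and 6.14 FPKM in CX22, 1.16 and 2.79 FPKM in CX45, and 0.0308 and 0.687 FPKM in 8C, with Amh, Fshr, Inha and Ptx3, 4 of 12, at 0 in every library. Sperm markers summed to 39.4 to 40.7 FPKM in 2C, 59.8 to 68.2 FPKM in CX22, 3.18 to 12.1 FPKM in CX45 and 2.62 to 3.21 FPKM in 8C, with 3 of 10 (Smcp, Spata18 and Tnp2) at 0 in every library. Blood markers summed to 322 to 381 FPKM in CX45 and to between 22.8 and 111 FPKM in the other groups. Hba-a1 held most of the sum in CX45 (286 and 347 FPKM) and in 2C (106 and 104 FPKM). Hba-a2, Hbb-b1, Ptprc, Alas2 and Laptm5 stayed below 1 FPKM in every library. Cd52, Lyz2 and Cd74 reached at most 19.6, 11.8 and 6.01 FPKM. None of the 9 listed was at 0 in every library. These sums moved with the groups, and the part of any of these markers in the results below was not tested. In bulk samples such as these, fewer cells of a type and less RNA per cell cannot be told apart.

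Glycolysis splits glucose into pyruvate. Hexokinases trap glucose as glucose 6-phosphate, phosphofructokinase commits it to the pathway, Pfkfb3 makes fructose 2,6-bisphosphate, which activates phosphofructokinase, and lactate dehydrogenase interconverts pyruvate and lactate. Early cleavage-stage mouse embryos take up pyruvate and lactate rather than glucose, and glucose use rises as they approach the blastocyst. Lactate dehydrogenase is a tetramer of A chains (Ldha) and B chains (Ldhb), and the mouse egg is known to store a large amount of the B form.

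The promoters of 6 start sites are shown. Hk1 and Aldoa each have transcript entries that begin at more than 1 annotated start, and the levels listed at these entries differed between groups. In CX45 both starts of each gene were listed. Ldha and Ldhb encode the chains of lactate dehydrogenase, of which Ldhb had the largest called difference. Calls were made on levels summed over entries, and a part of the promoters in the results was not tested. The sequences are from RefSeq (GRCm38.p6), 5′ to 3′ on the strand of the gene, and end just before the start unless stated. They were taken from the 250 bases before each start, without bases that lie in an annotated UTR. Capitals mark the core of the element bound by hypoxia-inducible factors (HIF), ACGTG or GCGTG, searched on both strands, so that CACGT and CACGC are the same core on the other strand. It overlaps the E-box CACGTG, bound by Myc and Max among others.
Hk1, upstream start, chr10:62379909-62380158, minus strand: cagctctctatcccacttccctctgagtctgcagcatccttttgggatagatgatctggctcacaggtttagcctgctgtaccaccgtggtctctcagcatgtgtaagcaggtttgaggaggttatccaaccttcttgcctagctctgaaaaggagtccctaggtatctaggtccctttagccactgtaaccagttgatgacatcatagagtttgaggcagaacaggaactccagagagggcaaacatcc
Hk1, downstream start, chr10:62340543-62340671, minus strand, the part from base -250 to base -122: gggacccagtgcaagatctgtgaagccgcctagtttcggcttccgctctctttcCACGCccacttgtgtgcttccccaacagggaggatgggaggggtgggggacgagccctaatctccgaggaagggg
Aldoa, upstream start, chr7:126800448-126800504, minus strand: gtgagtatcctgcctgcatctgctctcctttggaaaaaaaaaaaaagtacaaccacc
Aldoa, first downstream start, chr7:126799255-126799504, minus strand: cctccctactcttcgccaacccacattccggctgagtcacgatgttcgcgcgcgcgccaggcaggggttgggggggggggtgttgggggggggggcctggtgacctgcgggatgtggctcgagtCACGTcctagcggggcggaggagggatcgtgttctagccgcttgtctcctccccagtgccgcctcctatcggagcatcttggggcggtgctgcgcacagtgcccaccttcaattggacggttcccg
Ldha, upstream start, chr7:46845554-46845803, plus strand: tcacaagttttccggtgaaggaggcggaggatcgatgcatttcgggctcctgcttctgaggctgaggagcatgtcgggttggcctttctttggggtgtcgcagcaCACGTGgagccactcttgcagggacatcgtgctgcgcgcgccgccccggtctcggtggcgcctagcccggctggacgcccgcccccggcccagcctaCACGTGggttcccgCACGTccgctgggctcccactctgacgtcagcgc
Ldhb, chr6:142507958-142508207, minus strand: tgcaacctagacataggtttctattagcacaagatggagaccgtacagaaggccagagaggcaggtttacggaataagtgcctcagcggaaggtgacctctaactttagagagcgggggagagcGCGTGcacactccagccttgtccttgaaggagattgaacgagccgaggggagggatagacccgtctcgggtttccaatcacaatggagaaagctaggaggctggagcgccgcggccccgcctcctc

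All 10 genes had promoters in the RefSeq table, 17 in number. The HIF core was found in 15 of the 17 windows of 250 bases and in at least 1 window of each of the 10 genes, against 38.6% of all 32851 promoters and 41.5% of 27025 genes. The windows without it were the upstream starts of Hk1 and Aldoa, which had a GC content of 49.6% and 50.4%, the lowest of the 17. The E-box CACGTG was found in 2 windows, at the Ldha upstream start and the Pfkfb3 downstream start, against 6.02% of all promoters. The GC box GGGCGG was found in 10 of 17 windows, against 32.7% of all promoters, and TATAAA in none, against 12.4%. The windows of the Aldoa downstream starts overlap, as do some of Eno1, so the same matches were counted more than once. A gene with more windows also has more chances of a match. The comparison with all promoters was not matched for GC content, which ran from 49.6% to 71.2% in the 17 windows. These matches describe letters in the windows and not binding.

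**Figure D1:**
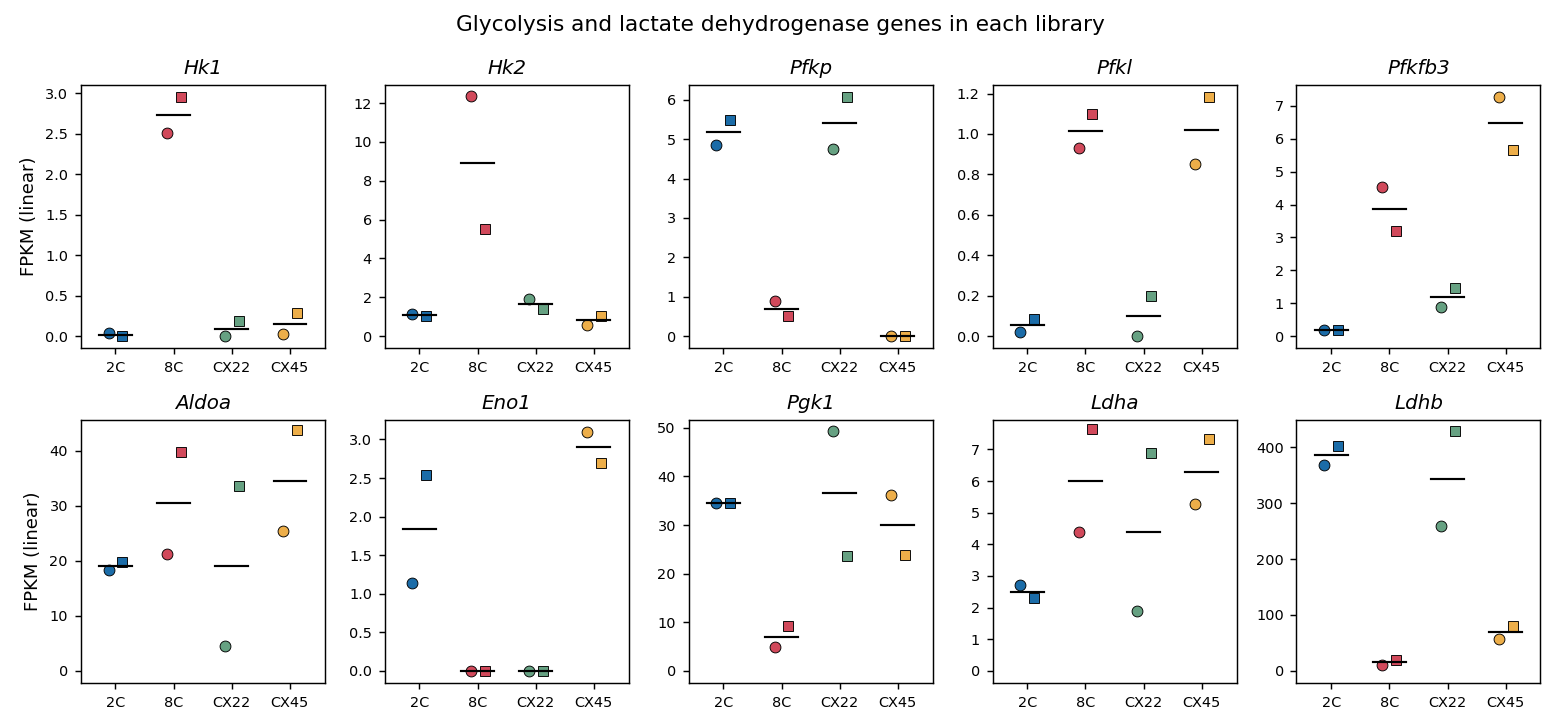
FPKM (linear scale, a separate vertical axis for each gene) of the 10 genes in each of the 8 libraries, with 1 point per library and a bar at the group mean. Ldhb stands between 259 and 428 FPKM in all 2C and CX22 libraries and between 11.2 and 19.7 FPKM in 8C, and Hk1 exceeds 1 FPKM in the 8C libraries.

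Between the 2C and 8C groups, Hk1, Hk2 and Pfkfb3 rose, and Ldhb, Pfkp and Eno1 fell, the last with the doubt about its entries given below. The call required a Benjamini-Hochberg adjusted p under 0.05 over all genes tested, by limma, and a log2 fold change of at least 1 in size on the log2(FPKM + 1) scale. That made 6 of 10 called, 3 higher and 3 lower, where 37.1% of all genes tested were called, 16.4% higher and 20.7% lower. The groups did not overlap for any of the 10, but this held for 89.9% of all genes. The 4 genes not called were Pfkl, Aldoa, Pgk1 and Ldha. The median log2 fold change of the 10 was 0.76, against a median of -0.04 for all genes. Their mean was -0.16, of the other sign, with 6 of 10 above 0 and 4 below.

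Both hexokinases were highest in 8C. Hk1 (chr10:61731603-61842656, mm9), the widely expressed hexokinase bound to mitochondria, was listed at 0.0406 and 0 FPKM in 2C, at 2.50 and 2.95 FPKM in 8C, at 0 and 0.181 FPKM in CX22, and at 0.0221 and 0.284 FPKM in CX45. Both 8C libraries were high and all 6 others were low. On 3 fragments, the level that a count of 0 still allows, Hk1 would stand at 0.0345 to 0.0721 FPKM, so its values in 2C, CX22 replicate 1 and CX45 replicate 1 lie at or below that level. Its log2 fold change in 8C against 2C was 1.87 (limma, SE 0.26, adjusted p = 0.00828), and in CX22 against 8C it was -1.78 (limma, SE 0.21, adjusted p = 0.00456). Both calls held under every alternative processing tried, with adjusted p from 0.000634 to 0.0452 and from 0.000848 to 0.0381. Hk1 entered the test only through its 8C libraries, where it is high, so these calls are not independent of the filter. In CX45 against 8C the log2 difference was -1.70 (limma, SE 0.21) and the adjusted p was 0.0569, so Hk1 was not called there. With the 2C libraries as 2 samples it was, without a replicate block (adjusted p = 0.011) and with one (adjusted p = 0.0236). That setting, here and below, counts 2 libraries that differ by close to sampling noise as separate samples. Its calls are no added support.

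Hk2 (chr6:82675021-82724448, mm9), the inducible hexokinase of growing tissues, was listed at 1.13 and 1.02 FPKM in 2C, 12.4 and 5.52 FPKM in 8C, 1.93 and 1.38 FPKM in CX22, and 0.576 and 1.06 FPKM in CX45. The 8C libraries were the highest, and 1 of them was more than 2 times the other. Hk2 rose in 8C against 2C by 2.17 on the log2 scale (limma, SE 0.61, adjusted p = 0.0488) and was lower in CX22 than in 8C, at -1.82 (limma, SE 0.50, adjusted p = 0.0411). The call against 2C was lost without any single library other than 2C replicate 1, with adjusted p from 0.051 to 0.128, and the call of CX22 against 8C was lost without any 8C, CX22 or CX45 library, with adjusted p from 0.0651 to 0.141. Both calls were also lost with a pseudocount of 0.1 (adjusted p = 0.0731 and 0.0683) and without the filter on low values (adjusted p = 0.0815 and 0.0725), and the first with the highest transcript entry (adjusted p = 0.0571). In CX45 against 8C the difference was -2.37 (limma, SE 0.50, adjusted p = 0.106), which was not called. With the 2C libraries as 2 samples it was called, without a replicate block (adjusted p = 0.0258) and with one (adjusted p = 0.0456).

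Of the phosphofructokinases, Pfkp was called and Pfkl was not. Pfkp (chr13:6579120-6648017, mm9), the platelet-type catalytic subunit, was listed at 4.86 and 5.49 FPKM in 2C, 0.888 and 0.504 FPKM in 8C, 4.75 and 6.07 FPKM in CX22, and at 0 in both CX45 libraries. The 2C and CX22 libraries overlapped, and every one of them was above every 8C and CX45 library. In 8C against 2C, Pfkp fell by 1.87 on the log2 scale (limma, SE 0.39, adjusted p = 0.0226) and was higher in CX22 than in 8C by 1.92 (limma, SE 0.32, adjusted p = 0.0104). It also fell in CX45 against CX22 (limma, adjusted p = 0.00672) and in CX45 against 2C (limma, adjusted p = 0.0131), where no fold is given because CX45 is listed at 0. The CX45 against CX22 call held under every alternative. The 8C against 2C call was lost without 8C replicate 1 or 2 (adjusted p = 0.0854 and 0.12) and with a pseudocount of 0.1 (adjusted p = 0.0528), that of CX22 against 8C without the same libraries (adjusted p = 0.06 and 0.0854), and that of CX45 against 2C without 8C replicate 2 or CX45 replicate 1 (adjusted p = 0.0507 and 0.0514).

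Pfkl (chr10:77449694-77472552, mm9), the liver-type subunit, was listed at 0.0223 and 0.0835 FPKM in 2C, 0.931 and 1.10 FPKM in 8C, 0 and 0.199 FPKM in CX22, and 0.852 and 1.18 FPKM in CX45. The 8C and CX45 libraries overlapped and all lay above all 2C and CX22 libraries. In 8C against 2C its log2 difference was 0.93 (limma, SE 0.24, adjusted p = 0.0388), which passed the p threshold but not the fold limit of 1, and the same held for CX45 against CX22 (0.88), CX45 against 2C (0.93) and CX22 against 8C (-0.88). Without CX22 replicate 2 it was called in CX45 against CX22 (1.01, limma, adjusted p = 0.0271) and in CX22 against 8C (-1.01, limma, adjusted p = 0.0234). With a pseudocount of 0.1 in place of 1 it was called in the same comparisons, at 2.68 (limma, adjusted p = 0.0452) and -2.68 (limma, adjusted p = 0.0375), and with upper quartile scaling in 8C against 2C, at 1.02 (limma, adjusted p = 0.0273). Pfkm, the muscle-type subunit, was between 0 and 0.0880 FPKM in 2C, 8C and CX22 and at 0.773 and 0.615 FPKM in CX45, and was too low to test.

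Pfkfb3 (chr2:11393058-11475556, mm9), which makes the activator of phosphofructokinase, was listed at 0.179 and 0.184 FPKM in 2C, 4.54 and 3.19 FPKM in 8C, 0.878 and 1.47 FPKM in CX22, and 7.28 and 5.66 FPKM in CX45. Among the 10 genes it was the one whose 4 groups were all separate from each other, in the order 2C, CX22, 8C, CX45. It rose in 8C against 2C by 2.03 (limma, SE 0.49, adjusted p = 0.0333), in CX45 against 2C by 2.65 (limma, SE 0.49, adjusted p = 0.0214) and in CX45 against CX22 by 1.78 (limma, SE 0.40, adjusted p = 0.027), all on the log2 scale. The steps from 2C to CX22 (0.87, limma, adjusted p = 0.526) and from 8C to CX45 (0.62, limma, adjusted p = 0.493) were not called. Nor was that of CX22 against 8C (-1.16, limma, adjusted p = 0.0761), except with the 2C libraries as 2 samples, without a replicate block (adjusted p = 0.0263) and with one (adjusted p = 0.0476). The 3 calls were lost without either 8C library (adjusted p from 0.0632 to 0.14), the 2 CX45 calls without either CX45 library (adjusted p from 0.0522 to 0.088), and the 8C call without CX45 replicate 2 (adjusted p = 0.0506) or without the filter on low values (adjusted p = 0.0508). They were also lost with the highest transcript entry in place of the sum (adjusted p from 0.261 to 0.426).

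Aldoa (chr7:133938748-133943961, mm9), the aldolase that splits fructose 1,6-bisphosphate, showed no called difference in its summed level. It was listed at 18.2 and 19.7 FPKM in 2C, 21.2 and 39.7 FPKM in 8C, 4.48 and 33.6 FPKM in CX22, and 25.4 and 43.6 FPKM in CX45. One CX22 library was the lowest of all 8, and the other lay within the range of 8C and of CX45. Its log2 difference in 8C against 2C was 0.59 (limma, SE 1.19, adjusted p = 0.724). Without CX22 replicate 2, the difference of CX45 against CX22 went from 1.32 (limma, adjusted p = 0.342) to 2.65 (limma, adjusted p = 0.0488), which was called.

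Pgk1 (chrX:103382439-103399038, mm9), which makes ATP from 1,3-bisphosphoglycerate, was lowest in 8C. It was listed at 34.6 and 34.5 FPKM in 2C, 4.91 and 9.21 FPKM in 8C, 49.5 and 23.6 FPKM in CX22, and 36.2 and 23.8 FPKM in CX45. Both 8C libraries were below all 6 others, which overlapped across groups. Pgk1 was higher in CX22 than in 8C by 2.18 on the log2 scale (limma, SE 0.51, adjusted p = 0.0273), a call lost without either 8C library, CX22 replicate 1 or either CX45 library (adjusted p from 0.0606 to 0.141). In 8C against 2C the log2 difference was -2.19 (limma, SE 0.63, adjusted p = 0.0513), just short of the threshold, and without CX22 replicate 1 or 2 it was called (adjusted p = 0.0442 and 0.0438). It was also called with quantile normalization (adjusted p = 0.0495) and with the 2C libraries as 2 samples, without a replicate block (adjusted p = 0.00697) and with one (adjusted p = 0.012). The difference of CX45 against 8C was 1.97 (limma, SE 0.51, adjusted p = 0.147) and was not called, except with the 2C libraries as 2 samples and no block (adjusted p = 0.0494).

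Eno1 (chr4:149611306-149622982, mm9), the enolase that makes phosphoenolpyruvate, was listed at 1.13 and 2.54 FPKM in 2C, 3.10 and 2.70 FPKM in CX45, and at 0 in all 8C and CX22 libraries. It was called lower in 8C than in 2C (limma, adjusted p = 0.01), lower in CX22 than in 2C (limma, adjusted p = 0.0419), and higher in CX45 than in 8C (limma, adjusted p = 0.0462) and in CX22 (limma, adjusted p = 0.00505), with no fold given against a group at 0. The call of 8C against 2C was lost without either 8C library (adjusted p = 0.064 and 0.0665), that of CX22 against 2C without 2C replicate 2 or either 8C library (adjusted p from 0.08 to 0.173), and that of CX45 against 8C without any 8C, CX22 or CX45 library (adjusted p from 0.0756 to 0.3). The CX22 against 2C and CX45 against 8C calls were also lost without the filter on low values (adjusted p = 0.0621 and 0.0599) and with quantile normalization (adjusted p = 0.143 and 0.0801), and the latter with upper quartile scaling (adjusted p = 0.0592). An entry of Eno1b, a retrogene whose accession the table also lists at the Eno1 locus, stood there at 1.76 and 0 FPKM in 2C, 2.17 and 3.41 FPKM in 8C, 0 and 3.41 FPKM in CX22, and 0.676 and 3.64 FPKM in CX45. Summed at the locus, the levels were 2.89 and 2.54 FPKM in 2C and 2.17 and 3.41 FPKM in 8C, so the groups overlapped, and none of the 4 calls remained (limma, adjusted p from 0.222 to 1). The Eno1 values are therefore uncertain.

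The lactate dehydrogenases held the largest difference among the 10 genes. Ldhb (chr6:142438769-142456477, mm9), the B chain, was listed at 368 and 403 FPKM in 2C, 11.2 and 19.7 FPKM in 8C, 259 and 428 FPKM in CX22, and 57.6 and 80.0 FPKM in CX45. CX22 spanned the 2C values, both 8C libraries were lowest, and CX45 lay between with no overlap. In 8C against 2C, Ldhb fell by 4.61 on the log2 scale (limma, SE 0.51, adjusted p = 0.00482) and was higher in CX22 than in 8C by 4.40 (limma, SE 0.41, adjusted p = 0.00278). These calls held under every alternative. In CX45 against CX22 it fell by 2.28 (limma, SE 0.41, adjusted p = 0.016), and in CX45 against 2C it fell by 2.49 (limma, SE 0.51, adjusted p = 0.0264). The first of these was lost without CX22 replicate 2 or either CX45 library (adjusted p from 0.0553 to 0.0872) and the second without either 8C or either CX45 library (adjusted p from 0.0567 to 0.104). CX45 was above 8C by 2.12 (limma, SE 0.41, adjusted p = 0.0961), which was not called. With the 2C libraries as 2 samples it was called, without a replicate block (adjusted p = 0.0235) and with one (adjusted p = 0.0218). The 2C libraries differed by close to sampling noise, so calls under that setting are no added support.

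Ldha (chr7:54101174-54110997, mm9), the A chain, was listed at 2.71 and 2.29 FPKM in 2C, 4.38 and 7.65 FPKM in 8C, 1.90 and 6.89 FPKM in CX22, and 5.26 and 7.34 FPKM in CX45. The 2C libraries were below the 8C and CX45 libraries, and CX22 overlapped all groups. No difference of Ldha was called, and in 8C against 2C it was 0.96 on the log2 scale (limma, SE 0.78, adjusted p = 0.371). The entry at which Ldha was listed differed: in 8C both values came from the coding entry, and the non-coding entry was listed at 0. In 2C replicate 1 and CX22 replicate 1 the whole value came from the non-coding entry. With the highest entry in place of the sum, the difference of CX22 against 8C went from -0.51 (limma, adjusted p = 0.558) to 1.99 (limma, adjusted p = 0.032). In FPKM, which is per length, Ldhb made up 99.3% and 99.4% of the sum of Ldha and Ldhb in 2C, 71.8% and 72.1% in 8C, 99.3% and 98.4% in CX22, and 91.6% in both CX45 libraries. As a share of the sum of all 10 genes, Ldhb went from 85.4% and 86.0% in 2C to 17.8% and 22.0% in 8C, while the other 9 summed to between 51.7 and 85.7 FPKM in all 8 libraries.

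Near-identical copies limit some of these genes. Among 13607 annotated pseudogene transcripts (GENCODE M21), Hk1, Hk2, Pfkp, Pfkl and Pfkfb3 had none at 90% identity or more over at least 200 bases. Ldha had 12, Eno1 5, Pgk1 4, Aldoa 2 and Ldhb 1. How the authors assigned fragments that match several copies is not given in the sources used here, so the levels of these 5 are uncertain.

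**Figure D2:**
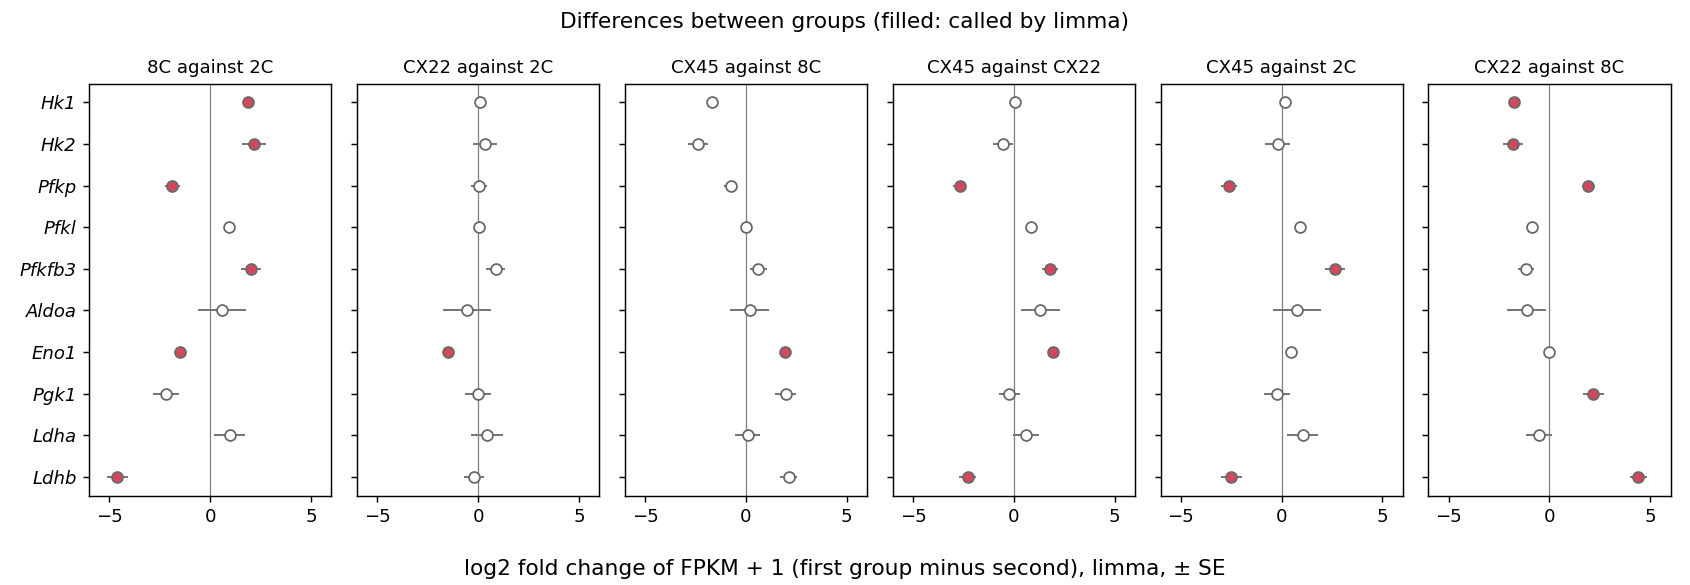
Log2 fold change of FPKM + 1 (horizontal axis, first group minus second, limma, with its SE as the bar) of the 10 genes in each of the 6 comparisons, with filled points for calls. Ldhb at -4.61 in 8C against 2C and 4.40 in CX22 against 8C lies furthest from 0. Points against groups at or near 0 depend on the pseudocount of 1, as for Eno1, Pfkp, Hk1, Pfkl and Pfkfb3.

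The other comparisons called fewer of the 10 genes than 8C against 2C. In CX22 against 2C, 1 of 10 was called, Eno1, lower in CX22, where 3.88% of all genes were called, 0.599% higher and 3.28% lower, and 3 of 10 did not overlap, against 54.4% of all genes. These 3 were Hk2, Pfkfb3 and Eno1. In CX45 against 8C, 1 of 10 was called, again Eno1, higher in CX45, where 0.658% of all genes were called, 0.456% higher and 0.202% lower, and 7 of 10 did not overlap, against 57% of all genes. Unadjusted, 3 of the 10 were higher and 2 lower at p under 0.05 (limma) in CX45 against 8C. The share of all genes at that unadjusted threshold is not given here, so these counts cannot be set against it. In CX45 against CX22, 4 of 10 were called, 2 higher and 2 lower, where 36.6% of all genes were called, 23.1% higher and 13.5% lower, and 6 of 10 did not overlap, against 65% of all genes. In CX45 against 2C, 3 of 10 were called, 1 higher and 2 lower, where 29.8% of all genes were called, 16.2% higher and 13.6% lower, and 7 did not overlap, against 85.6% of all genes. In CX22 against 8C, 5 of 10 were called, with Pfkp, Pgk1 and Ldhb higher and Hk1 and Hk2 lower, where 41.4% of all genes were called, 19.9% higher and 21.5% lower, and 7 did not overlap, against 69.8% of all genes. These comparisons share groups, so they are not independent of each other.

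Differences that involve CX45 sat on a shift of all genes. The median log2 difference of all genes tested was 0.31 in CX45 against 8C, 0.47 in CX45 against CX22 and 0.33 in CX45 against 2C, and quantile normalization moved these to 0, 0.06 and 0.12. The median log2 difference of the 10 genes was 0.14, 0.34 and 0.31 in the same comparisons, each below the median of all genes. Under quantile normalization the calls of CX45 against CX22 went from 2 higher and 2 lower to 1 higher and 2 lower, because Pfkfb3 was at 1.30 (limma, adjusted p = 0.0735). The share of higher calls over all genes went from 63.1% to 49.2% in that comparison.

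Aldoa, Hk1 and Pfkfb3 have entries at an upstream and a downstream start, and which of them was listed differed between groups. These genes were singled out after their values were seen, and the values are a description with no test. The promoters of the Hk1 and Aldoa starts are those printed above. Distances between the entry starts in the deposited mm9 table equal those between the RefSeq windows in GRCm38, at 39487 bases in Hk1, 1193 and 1269 bases in Aldoa and 51839 bases in Pfkfb3.

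Aldoa was listed only at the upstream entry in 2C (18.2 and 19.7 FPKM) and CX22 (4.48 and 33.6 FPKM). In 8C the downstream entries held 18.8 and 39.7 FPKM and the upstream entry 2.44 and 0 FPKM. In CX45 both were listed, with 14.4 and 22.8 FPKM upstream and 10.9 and 20.8 FPKM downstream, so the upstream entry held 56.9% and 52.2% of the sum. The upstream share was thus 100% in all 2C and CX22 libraries and at most 11.5% in 8C.

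Pfkfb3 was listed at its upstream entry in 2C (0.179 and 0.184 FPKM) and CX22 (0.878 and 1.47 FPKM) with the downstream entries at 0. In 8C the downstream entries held 3.50 and 2.37 FPKM and the upstream entry 1.04 and 0.817 FPKM. In CX45 the downstream entries held 7.28 and 4.94 FPKM and the upstream entry 0 and 0.716 FPKM. All Hk1 in 8C was at the downstream entry, at 2.50 and 2.95 FPKM, with the upstream entry at 0. The Hk1 downstream entry was at 0 in 2C and CX22 and at 0 and 0.284 FPKM in CX45. The Hk1 upstream entry was at 0.0406 and 0 FPKM in 2C, 0 and 0.181 FPKM in CX22, and 0.0221 and 0 FPKM in CX45. Its values in 2C and CX45 lie at or below the 0.0345 to 0.0721 FPKM of 3 fragments, so no change of start can be read there. Entries of one gene share most exons, so these splits rest on the authors' estimate of which entry fragments came from.

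**Figure D3:**
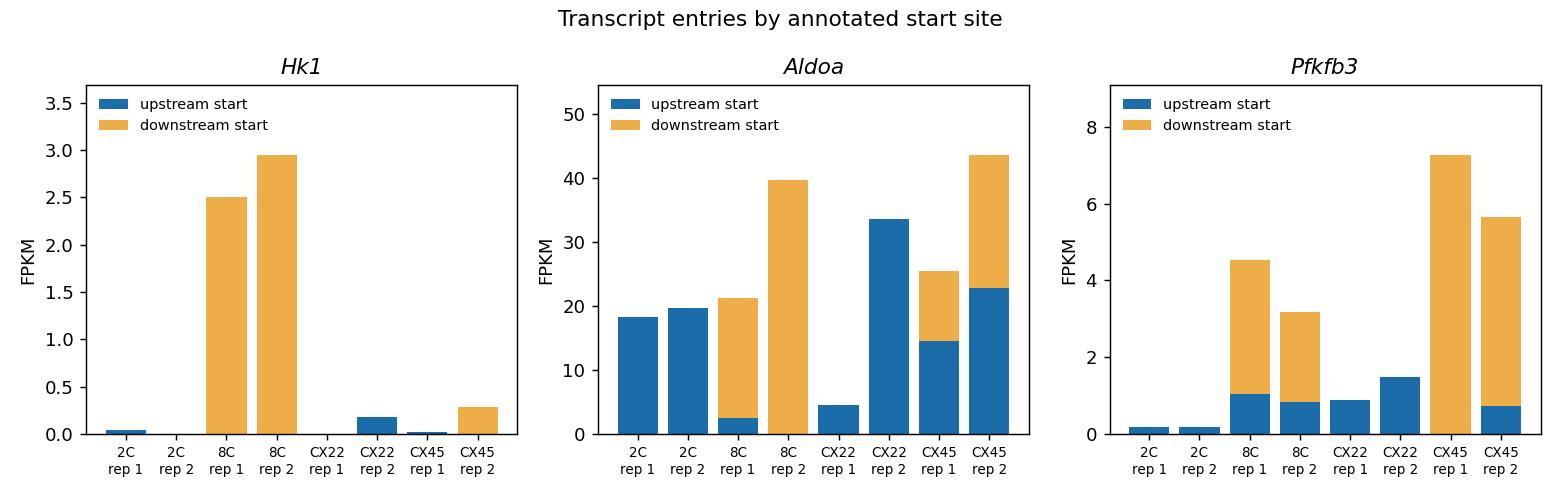
FPKM of Hk1, Aldoa and Pfkfb3 in each library (stacked bars), split into entries at the upstream start and at downstream starts. Aldoa is all upstream in 2C and CX22, at most 11.5% upstream in 8C, and 52.2% and 56.9% upstream in CX45.

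The other genes of the pathway were listed apart from the 10. Of 24 other glycolysis genes in the table, 13 were tested, and in 8C against 2C 1 rose and 1 fell, where 37.1% of all genes were called. Tigar, a phosphatase that lowers fructose 2,6-bisphosphate, rose from 13.6 and 14.1 FPKM in 2C to 109 and 143 FPKM in 8C, a log2 difference of 3.09 (limma, SE 0.69, adjusted p = 0.0268). Bpgm, which makes 2,3-bisphosphoglycerate, went from 680 and 667 FPKM to 9.37 and 8.17 FPKM and fell by 6.11 on the log2 scale (limma, SE 0.46, adjusted p = 0.0023). Both stood in CX22 near 2C (Tigar 5.04 and 13.8 FPKM, Bpgm 631 and 380 FPKM) and in CX45 nearer to 8C (Tigar 80.9 and 150 FPKM, Bpgm 26.8 and 43.4 FPKM). Pgam1, a phosphoglycerate mutase, was at 2.09 and 1.78 FPKM in 2C and 24.3 and 72.7 FPKM in 8C, a difference of 3.88 (limma, SE 1.23, adjusted p = 0.0653) that was not called. Pgam2 (2.92), Gpi1 (1.83), Tpi1 (1.71) and Pkm (-1.36) were not called either, with limma adjusted p from 0.104 to 0.121. Gapdh, which has 153 pseudogene copies, was at 0.519 FPKM or less in all 8 libraries and was not tested.

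Of 12 sugar and monocarboxylate carriers in the table, 6 were tested, and in 8C against 2C, where 20.7% of all genes were called lower, 1 of them, Emb, fell by 1.88 on the log2 scale (limma, SE 0.49, adjusted p = 0.0404). Emb is a partner protein of monocarboxylate carriers. The carrier of lactate and pyruvate Slc16a1 was at 12.7 and 13.3 FPKM in 2C and 10.8 and 7.57 FPKM in 8C (limma, adjusted p = 0.543). The glucose carriers Slc2a1 (limma, adjusted p = 0.726) and Slc2a3 (limma, adjusted p = 0.16) and the carrier partner Bsg (limma, adjusted p = 0.259) were not called, and Slc16a7 was at 0.798 FPKM or less and not tested.

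Other genes take pyruvate into mitochondria and on to acetyl-CoA. Of 15 in the table, 13 were tested, and 6 rose and 3 fell in 8C against 2C, where 16.4% of all genes were called higher and 20.7% lower. The subunits of the mitochondrial pyruvate carrier rose: Mpc1 from 180 and 190 FPKM to 436 and 484 FPKM (limma, log2 difference 1.31, SE 0.25, adjusted p = 0.0173), and Mpc2 from 154 and 160 FPKM to 818 and 824 FPKM (limma, 2.38, SE 0.26, adjusted p = 0.0047). So did Pdha1 (3.08), Pdhb (2.99) and Dld (2.43), which encode subunits of pyruvate dehydrogenase, and the phosphatase Pdp2 (4.28), which activates it. Dlat (-2.29), the E2 subunit, fell, as did Pdk3 (-2.18), a kinase that inactivates the complex, and Pdk2, which was listed at 0 in 8C. Whether this list differs from the 10 genes was not tested.

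Of 11 genes of the pentose phosphate pathway, which branches off at glucose 6-phosphate, 8 were tested, and 4 rose and 1 fell in 8C against 2C, against the same shares of all genes. G6pdx, its first enzyme, went from 59.6 and 64.8 FPKM to 1.78 and 2.68 FPKM and fell by 4.31 (limma, SE 0.70, adjusted p = 0.0119). Pgd (2.95), Tkt (1.86), Taldo1 (4.34) and Rpe, which was listed at 0 in 2C, rose.

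In CX22 against 2C and in CX45 against 8C, none of the 50 tested genes of these 4 lists and of the list of regulators was called by limma, where 3.88% and 0.658% of all genes were called. At an unadjusted p under 0.05 (limma), 2 were higher and 1 lower in CX22 against 2C, and 8 were higher and 2 lower in CX45 against 8C. The share of all genes at that unadjusted threshold is not given here, so these counts cannot be set against it. The median log2 difference of all genes tested was 0.31 in CX45 against 8C. In CX45 against CX22, Tigar, Ldhc, Mpc1, Mpc2, Pdha1, Pdhb, Pdp2, Pgd and Rpe rose, and Bpgm, Dlat, Pdp1, G6pdx and Tktl2 fell, among the 40 tested genes of the 4 lists of enzymes and carriers, where 36.6% of all genes were called.

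**Figure D4:**
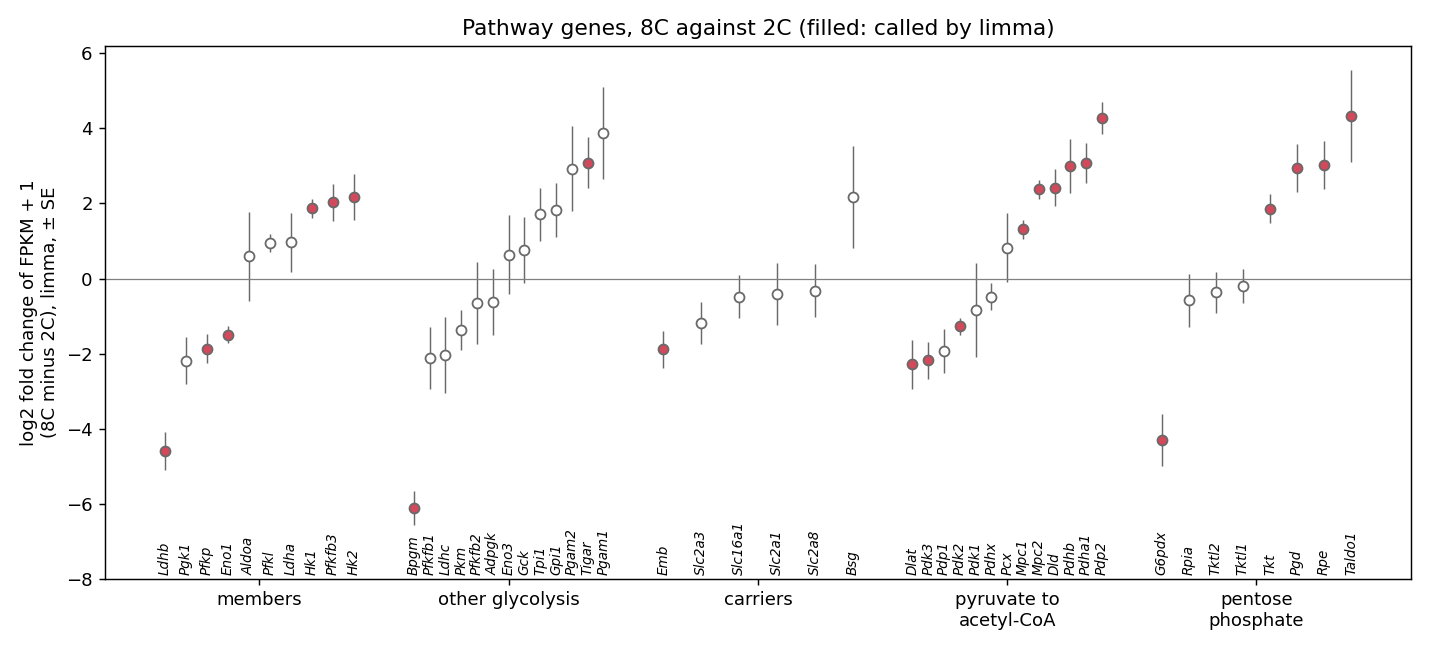
Log2 fold change of FPKM + 1 in 8C against 2C (vertical axis, limma, with its SE) of each tested gene of the 10 genes and 4 other lists, with filled points for calls. Bpgm at -6.11 is the lowest point and Taldo1 at 4.34 the highest, and values against a group at or near 0 depend on the pseudocount of 1.

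The genes with profiles most like each of the 10 were found over the 7 samples, by the distance between centred log2(FPKM + 1) profiles. Nearest to Ldhb were Ccdc186 (distance 0.58), Eea1 (0.58) and Dipk2a (0.67), and Ccdc186 had means of 156 FPKM (2C), 5.20 FPKM (8C), 137 FPKM (CX22) and 25.4 FPKM (CX45). Nearest to Pfkfb3 were Ndufb11 (0.31), Hspa4 (0.33) and Dhx8 (0.45), and to Pfkp Fbxl14 (0.50), Vdac2 (0.56) and Ptpn22 (0.58). Nearest to Hk1 were Gml2 (0.33), Yju2 (0.37) and Irak3 (0.43), all with means between 2.24 and 3.38 FPKM in 8C and 0.109 FPKM or less elsewhere. The nearest genes of Pgk1 (Slc44a2, 0.74) and Hk2 (Fermt3, 0.78) lay further off.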

How the data were processed

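The deposited table holds FPKM values made by the authors, 1 per RefSeq transcript and locus in each of 8 libraries. HISAT2, listed with version 4.8.2, Cufflinks 2.2.1 and the build mm9 are named in the submitters' processing notes, while the sources used here give no settings, annotation or strandedness. Of 41876 entries 41783 matched a RefSeq symbol, and entries were summed per gene. Depths were implied from the steps of low FPKM values, of which 63.7% to 68.4% were whole numbers of fragments to within 0.05, and cover counting error only.

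Over 3254 genes the 2C libraries differed by 1.20 times the chance median of chi-square (8C 27.9, CX22 151, CX45 44.9), so they were averaged. A single fit with limma 3.58.1 (R 4.3.3, trended moderation, two-sided) covered all 4 groups, with 7 samples and 3 residual degrees of freedom, and takes the spread of 2C from the others. It used log2(FPKM + 1) of the genes that reached 1 FPKM in 2 or more libraries, and calls needed an adjusted p under 0.05 and a log2 fold change of at least 1. The procedure was also run on simulated data with known changes, whose outcome is not given here. Only genes of higher mean level were changed there, so low genes such as Hk1, Pfkl and Eno1 were not covered. Pseudogene copies were searched with blastn 2.17.0.

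The 10 genes, the other lists, the tests and the rule for named genes were chosen with earlier results of these data known. All 10 genes were named, and of each other list at most the 4 with the smallest p in 8C against 2C, besides Gapdh, Pkm, Tpi1, Gpi1, Pgam1, Slc2a1, Slc2a3, Slc16a1, Slc16a7, Pdha1, Hif1a and Tigar, and, added after their values were seen, the called genes of small counts. Alternatives covered the pseudocount, filter, scaling, transcript summary, treatment of 2C, replicate block, each library left out and, added after seeing the data, the Eno1b entry counted with Eno1.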

Additional observations from a re-analysis of the deposited data

How the results depend on the processing

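Of 1020 recomputed values for 60 differences of single genes under 17 alternatives, 926 kept their side of the threshold, 72 lost the call and 20 gained it. Another 2 reversed direction with a call before or after. A change of direction without any call was counted among the 926. The reversals were Eno1 in 8C against 2C (0.0092 with the Eno1b entry) and Ldha in CX22 against 8C (1.99 with the highest entry). Of 20 calls, 5 held throughout: Hk1 and Ldhb in 8C against 2C and in CX22 against 8C, and Pfkp in CX45 against CX22. Hk1 passed the filter on low values only through its 8C libraries.

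With each library left out in turn, the number of the 10 genes called ran from 2 to 6 in 8C against 2C (6 with all libraries), 0 to 1 in CX22 against 2C (1), 0 to 1 in CX45 against 8C (1), 2 to 5 in CX45 against CX22 (4), 0 to 3 in CX45 against 2C (3) and 2 to 5 in CX22 against 8C (5). These fits have fewer residual degrees of freedom, except where a 2C library is left out. The numbers of all genes called ran from 1416 to 5620 (4397 with all libraries), 203 to 1110 (460), 0 to 78 (78), 2444 to 4613 (4335), 1497 to 4931 (3533) and 1873 to 5177 (4913).

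CX22 against 2C gave 0 without the filter, with quantile normalization and with the Eno1b entry. CX45 against 8C gave 0 under the same settings and with upper quartile scaling. With the 2C libraries as 2 samples CX45 against 8C gave 5 without and 4 with a replicate block, and all genes called went from 78 to 1038 and 709. The 2C libraries differ by close to sampling noise, and all groups share an estimate of the spread. The cause of the change was not tested. In the same 2 fits all genes called were 6693 and 6631 in 8C against 2C, 1611 and 1341 in CX22 against 2C, and 6101 and 6036 in CX45 against 2C. Quantile normalization gave 245 in CX22 against 2C and 0 in CX45 against 8C, upper quartile scaling and no filter gave 0 in CX45 against 8C, and a pseudocount of 0.1 gave 183. The correlation of deviations between same-numbered libraries lay between -0.00047 and 0.108, so the numbers were not taken as pairs.

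At these depths 3 fragments on a transcript of 2 kb stand at 0.0739 to 0.154 FPKM, so differences below that level were not detectable. The limit for a call was higher. On the log2(FPKM + 1) scale, a gene at 0 in one group had to reach about 1 FPKM in the other.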

Other observations

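The listed regulators of glycolysis were examined apart from the 10 genes. Of 12 in the table, 10 were tested. In 8C against 2C 1 rose and 1 fell, where 16.4% of all genes were called higher and 20.7% lower. Tead4, listed at 0 in 2C, rose to 20.0 and 24.1 FPKM. Max, the partner of Myc, went from 70.3 and 71.2 FPKM to 3.96 and 4.43 FPKM. It fell by 3.79 on the log2 scale (limma, SE 0.56, adjusted p = 0.00975). In CX45, Max was at 3.06 and 8.11 FPKM and in CX22 at 55.0 and 66.1 FPKM. Hif1a, the oxygen-regulated subunit of HIF, was at 18.7 and 17.5 FPKM in 2C, 1.17 and 1.12 FPKM in 8C, 26.2 and 22.8 FPKM in CX22, and 0.615 and 6.97 FPKM in CX45. Its difference of -3.15 in 8C against 2C was not called (limma, SE 1.00, adjusted p = 0.0664), and its difference of 3.56 in CX22 against 8C was (limma, SE 0.82, adjusted p = 0.0255). Myc (3.57, limma, adjusted p = 0.0846) and Epas1 (1.64, limma, adjusted p = 0.104) were not called in 8C against 2C. Vhl, which marks HIF for degradation, was higher in CX45 than in CX22 by 2.68 (limma, SE 0.54, adjusted p = 0.0204), and was picked after its values were seen.

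Of genes usually tied to the testis, Ldhc was at 57.0 and 30.1 FPKM in CX45, 22.9 and 22.3 FPKM in 2C, 2.44 and 8.62 FPKM in 8C, and 6.63 and 1.39 FPKM in CX22, and rose in CX45 against CX22 by 3.31 (limma, SE 0.83, adjusted p = 0.0362). Pgk2 was listed at 17.0 FPKM in CX22 replicate 2 and at 0 in the other 7 libraries. Both were chosen after their values were seen.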
